A study of Mus musculus with 11 samples.

Results

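ER-associated degradation (ERAD) removes proteins that fail to fold in the endoplasmic reticulum. Mannose-trimming proteins mark misfolded glycoproteins, a membrane complex built around the ubiquitin ligase HRD1 and its scaffold SEL1L moves clients across the membrane and tags them with ubiquitin, and the ATPase VCP then pulls them out to the proteasome. Many of these genes are transcribed more strongly when ATF6 or XBP1s is active. The ERAD core described here is a set of genes chosen by name: *Syvn1* (HRD1), *Sel1l*, *Herpud1*, *Selenos*, the derlins *Derl1*, *Derl2* and *Derl3*, and the EDEM genes *Edem1*, *Edem2* and *Edem3*. These are 10 of the 18667 genes measured, and all 10 passed the filter on low values.

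The animals were 2 months old, and each RNA-Seq library was made from 1 whole cochlea, 5 of *Atf6*+/+ and 6 of *Atf6*-/- genotype. In the *Atf6*-/- genotype the reading frame of *Atf6* ends early, within exon 4, and the protein is absent. Both genotypes were kept on a pure C57BL/6J background, a strain whose *Cdh23* ahl allele leads to hearing loss with age, and both sexes were used. Levels are FPKM, fragment counts scaled to transcript length and to the library total, so they can be compared between genes. The FPKM of all genes summed to 462005 to 537926 over the libraries, so values are compared between libraries only up to their scaling, and member calls that change in TPM or with median-of-ratios scaling are named. Read counts were not used here, and FPKM values do not show how many reads each library held. A cochlea is a mixture of cell types, so a level is an average over all of them, and fewer cells of a type and less RNA per cell cannot be told apart.

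The targeted gene followed the labels. *Atf6* was 10.4, 9.99, 10.6, 8.39 and 8.25 FPKM in *Atf6*+/+ replicates 1 to 5, and 3.83 at the lowest, 4.23 at the median and 4.59 at the highest in the *Atf6*-/- libraries. All *Atf6*-/- libraries lay below all *Atf6*+/+ libraries (log2 fold change -1.13, SE 0.084, limma adjusted p = 5.17e-05). The cochlear identity of the tissue was visible in its markers: cochlin (*Coch*), made by spiral ligament fibrocytes, had mean levels of 2421 and 3034 FPKM in the 2 genotypes, and *Ocm*, an outer hair cell gene, of 34.2 and 74.0 FPKM.

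Some libraries stood apart before any member was compared. The summed level of 4 Y-linked genes (*Ddx3y*, *Eif2s3y*, *Kdm5d* and *Uty*) was 39.6, 41.0 and 33.4 FPKM in *Atf6*+/+ replicates 2, 3 and 4 and 0.22 FPKM in replicate 5. In *Atf6*+/+ replicate 1 it was 15.6 FPKM, between the levels of the other libraries, and all 4 genes were intermediate there. The library was counted as male where sex was a covariate, and whether it holds RNA of more than 1 animal was not tested. Of the *Atf6*-/- libraries, replicates 1 to 3 were at 0.24 to 0.36 FPKM and replicates 4 to 6 at 34.8 to 37.2 FPKM. A list of 6 skeletal muscle genes summed to 31.6 FPKM in *Atf6*-/- replicate 3, against at most 4.51 FPKM in any other library. That library was also the highest for *Herpud1*, *Derl1* and *Edem2*, and the part of muscle RNA in these values was not tested.

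Markers of blood-forming and immune cells also differed. The 11 neutrophil genes summed to 554, 635, 3584, 1422 and 288 FPKM in *Atf6*+/+ replicates 1 to 5, and to 115, 295 and 1356 FPKM at the lowest, median and highest in *Atf6*-/-. The 9 erythroid genes summed to 16108, 4829, 14867, 13718 and 46394 FPKM, against 2870, 4936 and 9378 FPKM. The 11 B cell genes gave 36.7, 35.4, 61.0, 58.0 and 41.5 FPKM, against 33.3, 34.8 and 43.1 FPKM. Marker levels were therefore lower in most *Atf6*-/- libraries, with overlap, and *Atf6*+/+ replicates 3 and 4 were high for both neutrophil and B cell genes. Of these lists, 5 of 11 neutrophil, 6 of 9 erythroid and 4 of 11 B cell genes fell at an unadjusted p and none rose. Their most abundant genes were *S100a9*, *Hba-a1* and *Ebf1*, and the only gene of these lists at 0 in any library was *Vpreb1*. Mean levels in *Atf6*+/+ and *Atf6*-/- were 367 and 104 FPKM for *S100a9* and 8300 and 2405 FPKM for *Hba-a1*. *Ebf1*, at 22.1 and 23.2 FPKM, was not lower, although it was a large part of the B cell sums.

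Plasma cells, whose secretory load makes heavy use of ERAD, were covered by a list of their own. Its 10 genes summed to 14.8, 15.8, 20.9, 22.2 and 15.9 FPKM in *Atf6*+/+ replicates 1 to 5, and to 10.6, 13.5 and 15.6 FPKM at the lowest, median and highest in *Atf6*-/-. Of the 9 that were tested, 3 fell and none rose. The most abundant was *Fkbp11* at 7.34 and 5.31 FPKM, followed by *Eaf2* at 4.12 and 4.24 FPKM and *Sdc1* at 2.22 and 1.72 FPKM. Every other gene of the list averaged 1.01 FPKM or less in either genotype, so the sums rest largely on these genes. Whether their RNA came from plasma cells was not tested. *Tnfrsf17*, a defining receptor of plasma cells, was near the floor in both genotypes. It was 0.06 to 0.16 FPKM in *Atf6*+/+, listed at 0 in 4 of the 6 *Atf6*-/- libraries, and too low to be tested. A bone marrow score, the mean log2 level of the neutrophil, erythroid and B cell lists, was 4.09 ± 0.80 (SD, n = 5) in *Atf6*+/+ and 3.0 ± 0.71 (SD, n = 6) in *Atf6*-/-. A plasma cell score made the same way was -0.012 ± 0.45 and -0.53 ± 0.099, with *Atf6*+/+ replicates 3 and 4 at 0.53 and 0.42 and the other *Atf6*+/+ libraries between -0.40 and -0.30. Markers of supporting cells and spiral ligament fibrocytes were higher on average in *Atf6*-/-, with overlap. The 8 supporting cell genes summed to 612, 567, 339, 352 and 547 FPKM in *Atf6*+/+ replicates 1 to 5 and to 445, 579 and 620 FPKM at the lowest, median and highest in *Atf6*-/-, and the 6 spiral ligament fibrocyte genes to 4686, 5002, 3315, 3403 and 4887 FPKM and to 4169, 5338 and 6707 FPKM. *Atf6*+/+ replicates 3 and 4 were thus also the lowest libraries for these lists, as they were for the hair cell list given below. In each of the 2 lists 1 gene rose and none fell, *Gjb6* and *Coch* were the most abundant, and none was listed at 0. Not all cochlear lists were higher. The 6 spiral ganglion neuron genes had mean sums of 3945 and 3734 FPKM and were highest in *Atf6*+/+ replicates 3 and 4. All 6 had negative log2 fold changes (median -0.064), and none passed. The bone marrow and plasma cell scores, and a fit without replicates 3 and 4 that was added after the values were seen, are given beside the members whose values they moved. Both scores were lower on average in *Atf6*-/-, so a fit with either can also take up part of a genotype difference. The part of these cells in the members' differences was not tested beyond those fits.

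Differences in the ERAD core were small, and they did not run in a single direction. *Herpud1* and *Syvn1* were higher and *Derl3* was lower in *Atf6*-/- cochleae when a p before adjustment of no more than 0.05 and a log2 fold change beyond 0.05 either way were asked for. That is 3 of 10 members, against 9.85% of the 16169 genes tested, with 2 higher (4.48% of all genes) and 1 lower (5.37% of all genes). None reached an adjusted p under 0.05 with limma, as 0.068% of all genes did, and the smallest adjusted p of a member was 0.415. By the exact permutation test of each gene, 4 of 10 members had a p of at most 0.05, against 9.22% of all genes. The 2 genotypes overlapped for all 10 members, whereas 1.25% of all genes did not overlap. The median log2 fold change of the members was 0.077, against -0.013 for all genes tested, and 6 of the 10 values were positive, against 45.3% of all genes.

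That count moved with the treatment of the libraries. It was 1 of 10 with the bone marrow score as a covariate (5.5% of all genes), 1 of 10 with the plasma cell score (3.88%) and 1 of 10 without *Atf6*+/+ replicates 3 and 4 (6.25%). In each of the 3 fits the member still called was *Syvn1*. Rescaling the libraries to TPM gave 6 of 10 (11.3% of all genes), with 5 higher and 1 lower, but there 1389 of all genes were higher and 439 lower, against 724 and 868 without rescaling. Median-of-ratios scaling gave 5 of 10, 4 higher and 1 lower, against 10.1% of all genes, 874 higher and 763 lower. The members' median was 0.134 in TPM, where the median of all genes was 0.043, and 0.046 without *Atf6*+/+ replicate 4.

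**Figure D1:**
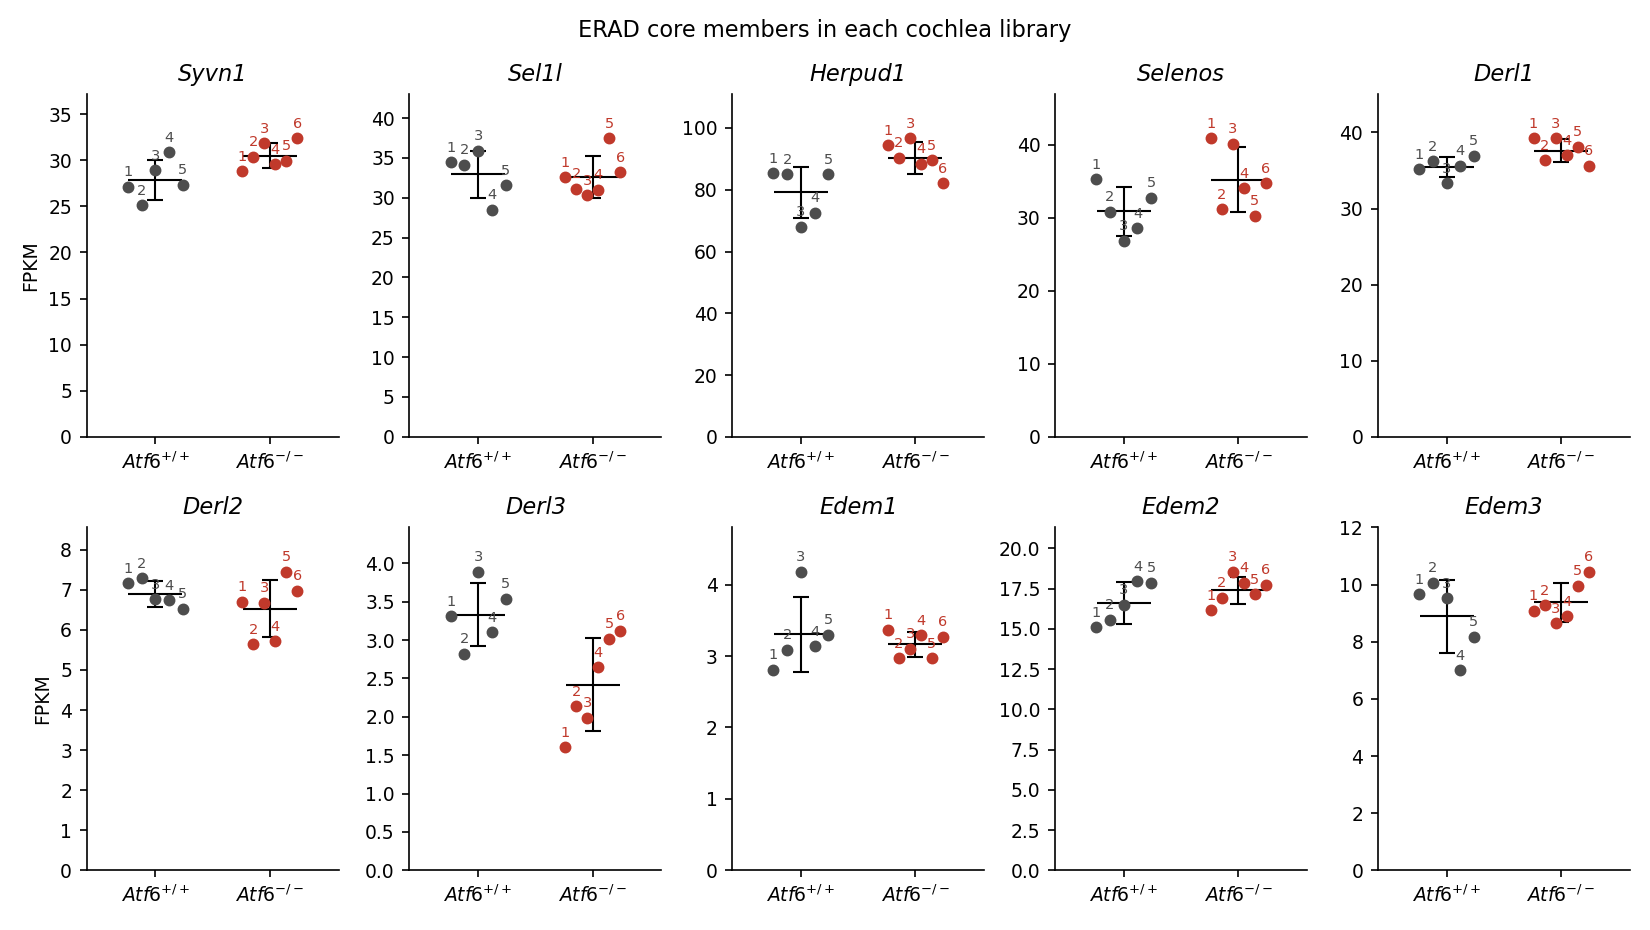
FPKM of the 10 ERAD core genes in each cochlea library (points, numbered by replicate) of *Atf6*+/+ (grey, n = 5) and *Atf6*-/- mice (red, n = 6), with the mean and SD as a bar and whiskers and each axis starting at 0. The genotypes overlap in all 10 panels, *Herpud1* is low in *Atf6*+/+ replicates 3 and 4, and 4 *Atf6*-/- libraries lie below all *Atf6*+/+ libraries for *Derl3*.

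*Syvn1* (NCBI gene 74126) encodes HRD1, the membrane-embedded ubiquitin ligase at the center of the complex. Its level was 27.2, 25.1, 28.9, 30.9 and 27.3 FPKM in *Atf6*+/+ replicates 1 to 5, and 28.8 at the lowest, 30.2 at the median and 32.4 at the highest in *Atf6*-/-. *Atf6*+/+ replicates 1, 2 and 5 lay below all *Atf6*-/- libraries, while replicate 4 lay above the *Atf6*-/- median. Means were 27.9 ± 2.15 (SD, n = 5) and 30.5 ± 1.37 FPKM (SD, n = 6), with a log2 fold change of 0.13 (SE 0.055, limma adjusted p = 0.480; exact two-sided permutation test, p = 0.0390). The difference was small enough for single libraries to decide it. It no longer passed at the unadjusted p without *Atf6*+/+ replicate 1, 2 or 5 (log2 fold changes 0.12, 0.095 and 0.12) or without *Atf6*-/- replicate 3 or 6 (0.12 and 0.11). It was larger with the bone marrow score (0.21) or the plasma cell score (0.24) in the model, and without *Atf6*+/+ replicates 3 and 4 (0.20). After subtraction of the genotype means, *Syvn1* went up with the plasma cell score across the 11 libraries (Pearson r = 0.73, Spearman rho = 0.65, and r = 0.59 without the 2 libraries farthest from the median) and with the B cell list (r = 0.78, rho = 0.76, r = 0.81 without 2).

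*Sel1l* (NCBI gene 20338), the scaffold that holds HRD1 and passes clients to it, showed no such difference. It was 34.5, 34.2, 35.9, 28.5 and 31.6 FPKM in *Atf6*+/+ and 30.3, 31.9 and 37.5 FPKM at the lowest, median and highest in *Atf6*-/-. The lowest library of all was *Atf6*+/+ replicate 4 and the highest *Atf6*-/- replicate 5, and the groups overlapped almost fully. The log2 fold change was -0.013 (SE 0.069, limma adjusted p = 0.965), and it turned positive in TPM (0.044), with sex as a covariate (0.016), and without *Atf6*+/+ replicate 1 (0.0049), 2 (0.0014) or 3 (0.020) or *Atf6*-/- replicate 3 (0.0075) or 4 (0.00087). It was -0.065 with the plasma cell score, -0.037 without *Atf6*+/+ replicates 3 and 4, -0.064 without replicate 4 and -0.026 without replicate 5, and -0.053 without *Atf6*-/- replicate 5. It was close to 0 without *Atf6*-/- replicate 2 (-0.00015) and when scaled by median of ratios (-0.00088). The log2 ratio of *Syvn1* to *Sel1l* within a library does not depend on the scaling between libraries. It averaged -0.24 ± 0.21 (SD, n = 5) and -0.095 ± 0.14 (SD, n = 6). The ligase and its scaffold were thus closer to equal levels on average in *Atf6*-/-, by 0.14, which is less than the *Atf6*+/+ SD. *Atf6*+/+ replicate 4, at 0.12, had the highest ratio of all libraries, and the 2 genotypes overlapped. The other *Atf6*+/+ libraries lay between -0.44 and -0.21, so the size of the difference depends on replicate 4.

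*Herpud1* (NCBI gene 64209) encodes HERP, a short-lived membrane protein with a ubiquitin-like domain that binds HRD1 and is among the genes most readily induced by ER stress. It was 85.4, 85.0, 68.0, 72.5 and 85.1 FPKM in *Atf6*+/+ replicates 1 to 5, and 82.1, 90.0 and 96.7 FPKM at the lowest, median and highest in *Atf6*-/-. Of the 6 *Atf6*-/- libraries, 5 lay above all *Atf6*+/+ libraries and replicate 6 lay below *Atf6*+/+ replicates 1, 2 and 5. Those 3 *Atf6*+/+ libraries were nearly equal, and replicates 3 and 4, the libraries with the highest plasma cell scores, were lower. Means were 79.2 ± 8.32 (SD, n = 5) and 90.3 ± 5.07 FPKM (SD, n = 6), with a log2 fold change of 0.19 (SE 0.069, limma adjusted p = 0.430; exact two-sided permutation test, p = 0.0108). Without replicates 3 and 4 it was 0.082, with the bone marrow score 0.046 and with the plasma cell score 0.030, and it then no longer passed at the unadjusted p. It passed without each single library (0.14 to 0.22).

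*Herpud1* went down across the libraries as B cell and bone marrow markers went up. With genotype means subtracted, its correlation over the 11 libraries was -0.92 with the B cell list (rho = -0.84, r = -0.81 without the 2 farthest libraries) and -0.84 with the bone marrow score (rho = -0.85, r = -0.84 without 2). With the plasma cell score it was -0.80 (rho = -0.81), and -0.51 without the 2 farthest libraries. Taken by genotype, r was -0.94 among *Atf6*+/+ (n = 5) and -0.86 among *Atf6*-/- libraries (n = 6) for the B cell list, and -0.94 and -0.75 for the bone marrow score. For the plasma cell score it was -0.99 and 0.21, so that relation was not seen among *Atf6*-/- libraries, where replicate 3 had both the highest score and the highest *Herpud1*. *Herpud1* also went up with the supporting cell list (r = 0.64, rho = 0.65, r = 0.38 without 2) and the hair cell list (r = 0.65, rho = 0.66, r = 0.37 without 2), with r = 0.92 and 0.84 among *Atf6*+/+ but -0.025 and 0.067 among *Atf6*-/- libraries. The part of these lists in the *Herpud1* values was not tested. With the macrophage list *Herpud1* had r = 0.13 (rho = 0.15, r = -0.027 without 2) and *Syvn1* r = 0.25 (rho = 0.17, r = 0.38 without 2). *Herpud1* thus moved against the B cell list and *Syvn1*, its binding partner, moved with it, and the correlation between these 2 members was -0.65 (rho = -0.56, r = -0.55 without 2). The log2 ratio of *Herpud1* to *Syvn1* was 1.65, 1.76, 1.23, 1.23 and 1.64 in *Atf6*+/+ and 1.34, 1.58 and 1.71 at the lowest, median and highest in *Atf6*-/-. *Atf6*+/+ replicates 3 and 4 were the lowest of all libraries, and the mean ratios of the 2 genotypes differed by only 0.062. *Atf6*+/+ replicates 1, 2 and 5, at 1.64 to 1.76, lay above the *Atf6*-/- median of 1.58. The direction of that difference thus rests on *Atf6*+/+ replicates 3 and 4.

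*Selenos* (NCBI gene 109815) encodes a selenoprotein of the ER membrane, also called VIMP, that binds derlins and recruits VCP. Its level was 35.3, 30.8, 26.9, 28.6 and 32.8 FPKM in *Atf6*+/+, and 30.3, 34.4 and 40.9 FPKM at the lowest, median and highest in *Atf6*-/-. *Atf6*-/- replicates 1 and 3 lay above all *Atf6*+/+ libraries, and *Atf6*+/+ replicates 3 and 4 were again the lowest. The log2 fold change was 0.19 (SE 0.093, limma adjusted p = 0.520; exact two-sided permutation test, p = 0.108), as large as that of *Herpud1* but with a wider spread. It passed at the unadjusted p in TPM (0.24), when scaled by median of ratios (0.20), and also without *Atf6*+/+ replicate 1 (0.24) or *Atf6*-/- replicate 2 (0.22) or 5 (0.23). With the bone marrow score it was 0.029, with the plasma cell score 0.066 and without *Atf6*+/+ replicates 3 and 4 0.088. With genotype means subtracted, *Selenos* followed the supporting cell list (r = 0.73, rho = 0.73, r = 0.58 without 2; 0.93 among *Atf6*+/+ and 0.57 among *Atf6*-/-) and the hair cell list (r = 0.77, rho = 0.80, r = 0.71 without 2; 0.87 among *Atf6*+/+ and 0.79 among *Atf6*-/-). The latter list's 8 genes summed to 138, 105, 50.5, 53.9 and 88.5 FPKM in *Atf6*+/+ and to 79.2, 138 and 164 FPKM at the lowest, median and highest in *Atf6*-/-. Of that list 2 of 8 genes rose and none fell, *Ocm* was the most abundant and none was listed at 0. The part of these cells in the *Selenos* values was not tested.

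The derlins are membrane proteins related to rhomboid proteases that have lost the catalytic site and help clients cross the membrane. *Derl1* (NCBI gene 67819) was 35.1, 36.2, 33.4, 35.6 and 36.9 FPKM in *Atf6*+/+ and 35.7, 37.6 and 39.2 FPKM at the lowest, median and highest in *Atf6*-/-. Of the *Atf6*-/- libraries 4 lay above all *Atf6*+/+ libraries, and *Atf6*+/+ replicates 1, 3 and 4 lay below all *Atf6*-/- libraries. The means differed by 6.07%, a log2 fold change of 0.085 (SE 0.042, limma adjusted p = 0.518; exact two-sided permutation test, p = 0.0390). With limma it passed at the unadjusted p only in TPM (0.14), when scaled by median of ratios (0.097), and also without *Atf6*+/+ replicate 5 (0.099) or *Atf6*-/- replicate 6 (0.10). *Derl1* had the smallest spread of the 10 members, with a coefficient of variation of 3.81% in *Atf6*+/+ and 3.98% in *Atf6*-/-. It went down with the bone marrow score (r = -0.82, rho = -0.76, r = -0.70 without 2), and with that score in the model its log2 fold change was 0.017, or 0.046 with the plasma cell score.

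*Derl2* (NCBI gene 116891), which works with the same HRD1 complex, was far lower than *Derl1*. It was 7.16, 7.29, 6.76, 6.74 and 6.53 FPKM in *Atf6*+/+ and 5.64, 6.69 and 7.45 FPKM at the lowest, median and highest in *Atf6*-/-. Of the *Atf6*-/- libraries 2 lay below and 1 lay above all *Atf6*+/+ libraries, and the log2 fold change was -0.084 (SE 0.079, limma adjusted p = 0.728). It kept its sign and passed under none of the 23 alternatives. It was -0.14 with the bone marrow score and -0.028 in TPM, and with single libraries left out it lay between -0.12 (without *Atf6*-/- replicate 5) and -0.044 (without replicate 2), with -0.048 without replicate 4.

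*Derl3* (NCBI gene 70377), the derlin of strongly secreting cells, had the largest difference of the 10 members, except with the bone marrow score, where that of *Syvn1* was larger. The level of *Derl3* was low, close to that of *Edem1*. It was 3.31, 2.82, 3.89, 3.10 and 3.54 FPKM in *Atf6*+/+ replicates 1 to 5, and 1.6, 2.40 and 3.12 FPKM at the lowest, median and highest in *Atf6*-/-. *Atf6*-/- replicates 1 to 4 lay below all *Atf6*+/+ libraries, and replicates 5 and 6, at 3.02 and 3.12 FPKM, lay within the *Atf6*+/+ range. *Derl3* was also the most variable member in *Atf6*-/-, with a coefficient of variation of 25.1%. The 3 *Atf6*-/- libraries with almost no Y-linked RNA were at 1.6, 2.14 and 1.99 FPKM and the other 3 at 2.65, 3.02 and 3.12 FPKM, while the *Atf6*+/+ library without Y-linked RNA was at 3.54 FPKM. With sex as a covariate the log2 fold change of *Derl3* was -0.37 and still passed at the unadjusted p.

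The log2 fold change of *Derl3* was -0.47 (SE 0.16, limma adjusted p = 0.415; exact two-sided permutation test, p = 0.0303), and it passed at the unadjusted p without each single library (-0.55 to -0.37). With the bone marrow score it was -0.17, and it no longer passed. With the plasma cell score (-0.43) and without *Atf6*+/+ replicates 3 and 4 (-0.43) the size was close to that of all libraries, but it did not pass either. After genotype means were subtracted, *Derl3* showed almost no relation to the plasma cell score (r = 0.096, rho = 0.091, r = -0.043 without 2) and a close one to the erythroid list (r = 0.87, rho = 0.85, r = 0.82 without 2, and 0.91 in either genotype alone), the highest of its 13 correlations with marker lists. The lowest of the *Atf6*-/- libraries for *Derl3*, replicate 1, had the lowest erythroid sum, and the highest, replicate 6, the highest.

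Within the family, *Derl1* made up 77.6% ± 1.16 (SD, n = 5) of the summed derlin FPKM in *Atf6*+/+ and 80.8% ± 2.05 (SD, n = 6) in *Atf6*-/-. The share of *Derl2* was 15.1% ± 0.766 and 14.0% ± 1.17, and that of *Derl3* 7.31% ± 1.02 and 5.21% ± 1.31. The shares of all 3 genes overlapped between the genotypes, and the differences of *Derl1* and *Derl3* behind them shrank once the bone marrow score was fitted too (0.017 and -0.17, as above). The log2 ratio of *Derl1* to *Derl2* was 0.17 higher, with 4 *Atf6*-/- libraries above all *Atf6*+/+ libraries, and that of *Derl3* to *Derl2* was 0.41 lower, with 3 *Atf6*-/- libraries below all *Atf6*+/+ libraries. Both ratios overlapped between the genotypes.

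EDEM proteins resemble mannosidases and trim the sugar chains of misfolded glycoproteins, which hands them to the HRD1 complex. EDEM2 is known for the first trimming step, and EDEM1 and EDEM3 for later ones. None of the 3 genes passed at the unadjusted p with all libraries. *Edem2* (NCBI gene 108687) was the most abundant, at 15.1, 15.6, 16.5, 18 and 17.9 FPKM in *Atf6*+/+ and 16.2, 17.4 and 18.5 FPKM at the lowest, median and highest in *Atf6*-/-. *Atf6*+/+ replicates 1 and 2 lay below all *Atf6*-/- libraries and the rest overlapped, with a log2 fold change of 0.070 (SE 0.058, limma adjusted p = 0.691) that passed only in TPM (0.13). It was 0.12 with the bone marrow score, 0.14 with the plasma cell score, 0.11 without *Atf6*+/+ replicates 3 and 4, and 0.037 without replicate 1. *Edem2* also went up with the osteoblast and bone list (r = 0.87, rho = 0.85, r = 0.79 without 2; 0.93 among *Atf6*+/+ and 0.76 among *Atf6*-/-). Those 8 genes summed to 293, 257, 635, 844 and 1884 FPKM in *Atf6*+/+ and to 196, 438 and 759 FPKM at the lowest, median and highest in *Atf6*-/-. None of the 8 passed at the unadjusted p, *Bglap* (osteocalcin) was the most abundant and none was listed at 0. The part of bone cells in the *Edem2* values was not tested.

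*Edem3* (NCBI gene 66967) was 9.66, 10.1, 9.52, 7.01 and 8.18 FPKM in *Atf6*+/+ and 8.65, 9.18 and 10.5 FPKM at the lowest, median and highest in *Atf6*-/-. *Atf6*+/+ replicates 4 and 5 lay below all *Atf6*-/- libraries, and the other values overlapped. The log2 fold change was 0.087 (SE 0.093, limma adjusted p = 0.763), and it depended on single libraries: 0.0055 without *Atf6*+/+ replicate 4, 0.13 without replicate 2 and 0.055 without *Atf6*-/- replicate 6. It was 0.14 in TPM, 0.015 without *Atf6*+/+ replicates 3 and 4, and turned negative (-0.020) with the plasma cell score. *Edem1* (NCBI gene 192193), a gene known to respond to XBP1s, was 2.81, 3.09, 4.18, 3.14 and 3.30 FPKM in *Atf6*+/+ and 2.97, 3.19 and 3.37 FPKM at the lowest, median and highest in *Atf6*-/-. Its *Atf6*+/+ values reached both below and above those of *Atf6*-/-, through replicate 1 and replicate 3. The log2 fold change was -0.051 (SE 0.098, limma adjusted p = 0.882), and it turned positive without *Atf6*+/+ replicate 3 (0.035), without replicates 3 and 4 (0.044), in TPM (0.0045), and with the bone marrow score (0.064) or the plasma cell score (0.11). Without *Atf6*+/+ replicate 1 it was -0.10, and without *Atf6*-/- replicate 2 or 5 it was -0.034.

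The shares of the EDEM family hardly differed between the genotypes. *Edem1* made up 11.4% ± 1.4 (SD, n = 5) of the summed EDEM FPKM in *Atf6*+/+ and 10.6% ± 0.690 (SD, n = 6) in *Atf6*-/-, *Edem2* 57.7% ± 4.44 and 58.1% ± 1.91, and *Edem3* 30.9% ± 4.46 and 31.3% ± 1.89. All 3 shares overlapped between the genotypes. The log2 ratio of *Edem1* to *Edem3* spanned -1.78 to -1.16 among *Atf6*+/+ libraries and -1.75 to -1.43 among *Atf6*-/- libraries.

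**Figure D2:**
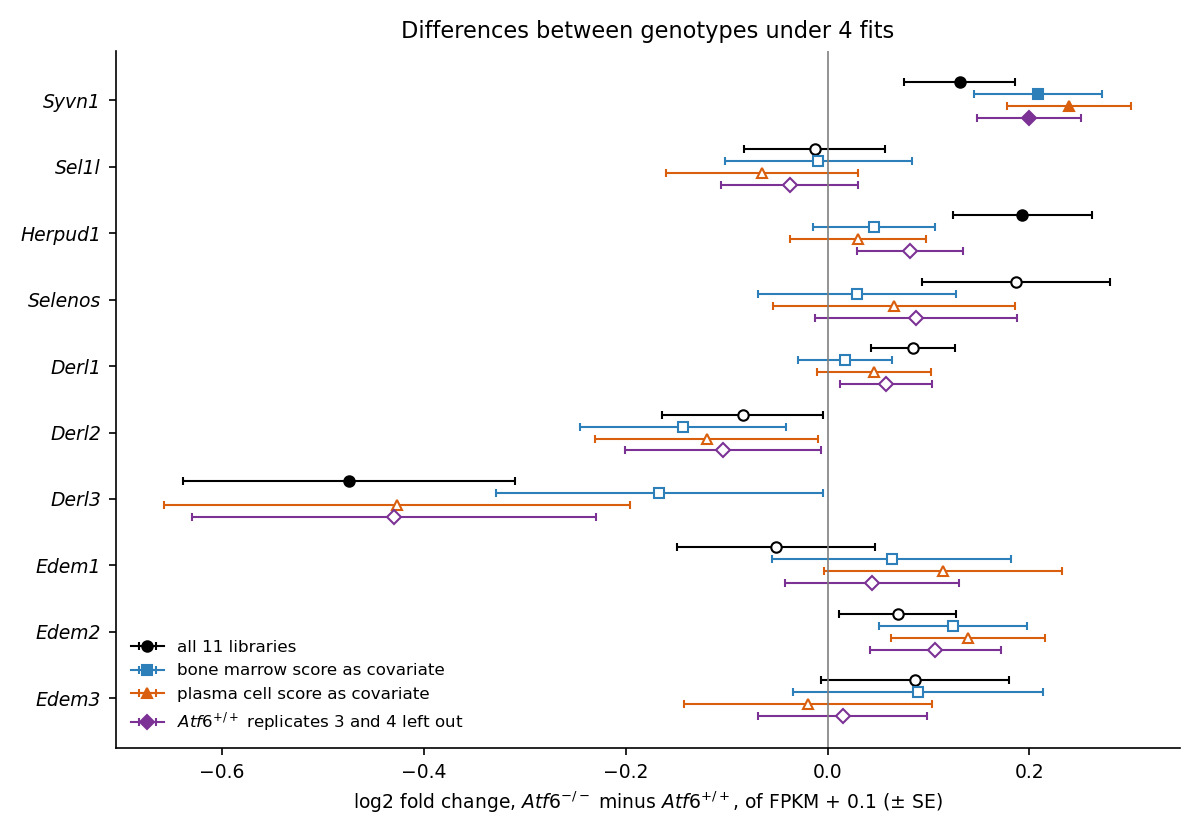
Log2 fold change (*Atf6*-/- minus *Atf6*+/+, of FPKM + 0.1) of each ERAD core gene with its standard error, from all 11 libraries (black), with the bone marrow score (blue) or the plasma cell score (orange) as a covariate, and without *Atf6*+/+ replicates 3 and 4 (purple). Filled symbols passed at the unadjusted p: *Herpud1* and *Derl3* are filled only with all libraries, and *Syvn1* in all 4 fits.

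The 10 genes span a wide range of levels. Averaged over the 11 libraries, *Herpud1* was the highest at 85.2 FPKM, above 94.1% of the genes tested. It was followed by *Derl1* (36.6 FPKM), *Selenos* (33.3 FPKM), *Sel1l* (32.8 FPKM) and *Syvn1* (29.3 FPKM), whose neighbors in this order overlapped between libraries in both genotypes. The HRD1 ligase, its scaffold and its VCP recruiter thus lay within a narrow band. *Edem2* (17.0 FPKM) was below all of them in all 11 libraries, and *Edem3* (9.16 FPKM) was below *Edem2* in all 11. *Derl2* (6.69 FPKM) was below *Edem3* in all 11 libraries, although the ranges of these 2 genes overlapped in *Atf6*+/+. *Edem1* (3.23 FPKM) and *Derl3* (2.83 FPKM), the lowest pair, could not be ordered beyond their spread. Together the members took 0.0457% to 0.0527% of all FPKM in the *Atf6*+/+ libraries and 0.0533% to 0.0576% in the *Atf6*-/- libraries. These shares did not overlap between the genotypes, and the lowest were those of *Atf6*+/+ replicates 4 (0.0457%) and 5 (0.0471%). The share also depends on the total of each library, as TPM does, and in TPM 62.7% of all genes tested had a positive log2 fold change. How many other genes have shares without overlap was not counted. Without that scaling, the summed FPKM of all members was separated only narrowly. Its highest value was 255.5 in *Atf6*+/+ (replicate 1) and its lowest 256.4 in *Atf6*-/- (replicate 2). The summed FPKM of the members other than *Herpud1*, the most abundant, overlapped, at 162 to 170 FPKM in *Atf6*+/+ and 166 to 180 FPKM in *Atf6*-/-.

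The members did not vary together from library to library. Over the 45 pairs, with genotype means subtracted, 22 correlations were positive and 23 negative, with a median of -0.058. All 11 libraries share the same values for every pair, so these are descriptions and carry no p. The closest pair was *Sel1l* and *Edem3* (r = 0.83, rho = 0.78, r = 0.84 without 2), and both were lower where the macrophage list was higher (r = -0.82 and -0.65 with the macrophage list, rho = -0.85 and -0.79, r = -0.77 and -0.75 without 2). The 8 macrophage genes summed to 166, 175, 172, 226 and 246 FPKM in *Atf6*+/+ and to 117, 179 and 218 FPKM at the lowest, median and highest in *Atf6*-/-. None of them passed at the unadjusted p, *C1qb* was the most abundant and none was listed at 0. *Sel1l* and *Edem3* were also higher where the stria vascularis list was higher (r = 0.73 and 0.75, rho = 0.71 and 0.48, r = 0.47 and 0.47 without 2). Its 8 genes summed to 213, 197, 200, 67.4 and 233 FPKM in *Atf6*+/+ and to 117, 172 and 276 FPKM at the lowest, median and highest in *Atf6*-/-. Of these 1 rose and none fell, *Kcnj10* was the most abundant, and *Bsnd* was listed at 0 in some libraries. The part of either list in the values of *Sel1l* and *Edem3* was not tested.

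Further pairs with positive values were these. *Herpud1* went with *Derl1* (r = 0.77, rho = 0.65, r = 0.46 without 2) and with *Selenos* (r = 0.68, rho = 0.68, r = 0.70 without 2). *Derl1* and *Selenos*, whose products bind each other, had r = 0.59 (rho = 0.59, r = 0.56 without 2), and all 3 of these genes went down with the bone marrow score (r = -0.84, -0.82 and -0.64 for *Herpud1*, *Derl1* and *Selenos*; rho = -0.85, -0.76 and -0.72; r = -0.84, -0.70 and -0.38 without 2). The part of the marrow lists in these pairs was not tested. *Derl2* went with *Sel1l* (r = 0.58, rho = 0.65, r = 0.61 without 2). *Derl3* ran against *Herpud1*, *Derl1* and *Selenos*, with r = -0.54 to *Herpud1*, -0.59 to *Derl1* and -0.57 to *Selenos* (rho = -0.53, -0.65 and -0.58, and r = -0.44, -0.35 and -0.48 without 2). *Syvn1* went with *Edem2* (r = 0.66, rho = 0.61, r = 0.47 without 2) and not with its scaffold *Sel1l* (r = -0.40, rho = -0.30, r = 0.012 without 2). The lowest of the 45 was that of *Edem2* and *Edem3* (r = -0.68, rho = -0.69, r = -0.51 without 2), members of 1 family.

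**Figure D3:**
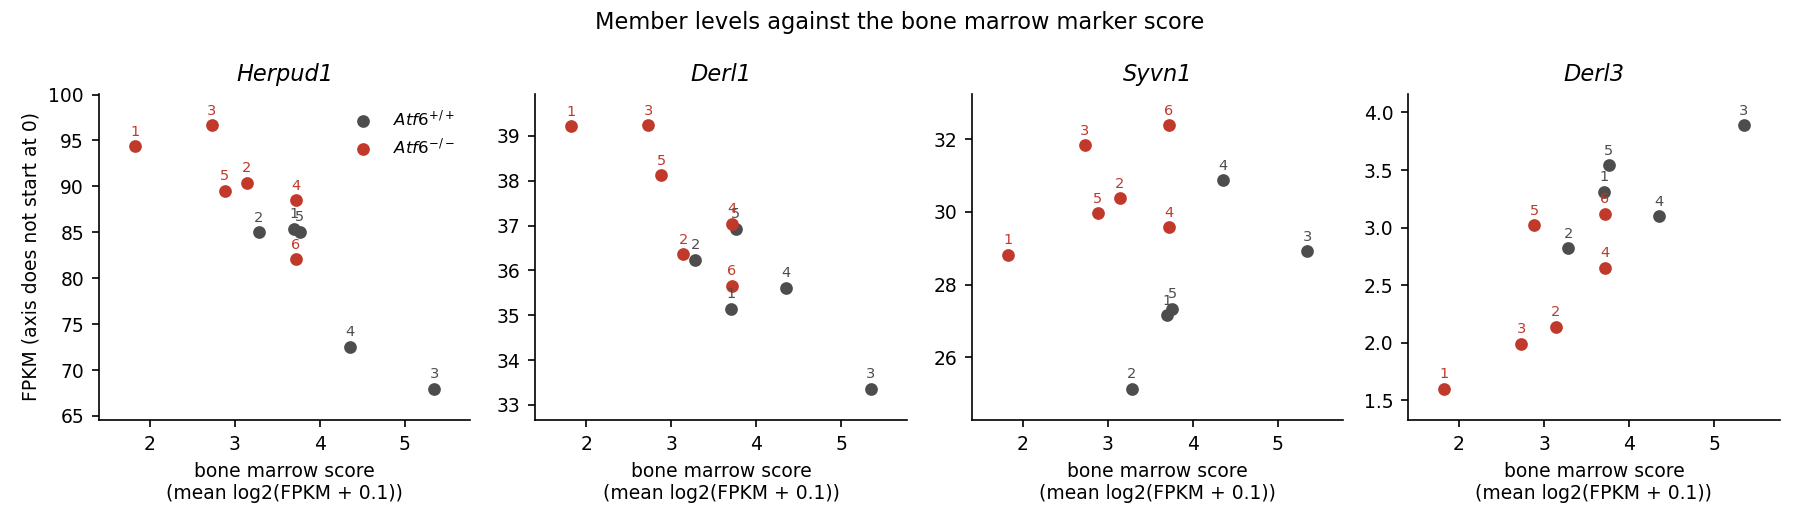
FPKM of *Herpud1*, *Derl1*, *Syvn1* and *Derl3* against the bone marrow score (mean log2 of FPKM + 0.1 over the neutrophil, erythroid and B cell lists) in each library, numbered by replicate, for *Atf6*+/+ (grey, n = 5) and *Atf6*-/- (red, n = 6). The vertical axes do not start at 0. *Herpud1* and *Derl1* go down and *Derl3* goes up with the score (r = -0.84, -0.82 and 0.73 with genotype means subtracted).

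Among the other 13610 tested genes that averaged 1 FPKM or more, the pattern most like each member was looked up, again over 11 libraries with genotype means subtracted. The 3 genes nearest to *Herpud1* were *B4galt4* (r = 0.98, rho = 0.98, r = 0.97 without 2), *Nfxl1* (r = 0.96) and *Tnfaip6* (r = 0.95), and those nearest to *Syvn1* were *Ulk3* (r = 0.95, rho = 0.89, r = 0.85 without 2), *Cdkn2c* (r = 0.93) and *Sergef* (r = 0.90). For *Sel1l* they were *Tmem245* (r = 0.97), *Mlxip* (r = 0.96) and *Dstyk* (r = 0.96), and for *Selenos* *Rnase1* (r = 0.93), *Cyb5a* (r = 0.92) and *Rassf9* (r = 0.92). With so many genes and 11 libraries, high values turn up for any gene, and no other member was among the 3 nearest of any member. *Derl1* was nearest to *Ttc38* (r = 0.93), *Gcat* (r = 0.93) and *Scpep1* (r = 0.92), *Derl2* to *Ctns* (r = 0.95), *Sox11* (r = 0.94) and *Abhd2* (r = 0.92), and *Derl3* to *Gins2* (r = 0.90), *Tfe3* (r = 0.88) and *1700017B05Rik* (r = 0.88). *Edem1* was nearest to *Tmem154* (r = 0.93), *Mfap3* (r = 0.92) and *Themis2* (r = 0.92), *Edem2* to *Ppp1ca* (r = 0.96), *Pold1* (r = 0.92) and *Snai2* (r = 0.92), and *Edem3* to *Uprt* (r = 0.98), *Ago2* (r = 0.98) and *Suz12* (r = 0.98).

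The partners of the core were followed in 7 further lists with 90 genes in all, and 10 of these passed at the unadjusted p, 7 higher and 3 lower, with a median log2 fold change of 0.021. That count includes *Atf6* itself and lies near the 9.85% of all genes. By the exact permutation test 14 of the 90 had a p of at most 0.05, against 9.22% of all genes. Of 11 lectins, adaptors and ubiquitin-conjugating enzymes, none passed (median 0.044), although 3 of the 11 had an exact permutation p of at most 0.05, and none of 10 genes of glycan trimming and the calnexin cycle (median 0.041). None of 8 rhomboid relatives of the derlins passed either (median -0.051). Of 22 genes for VCP and delivery to the proteasome, 1 passed (median -0.0018): *Svip*, which encodes a small inhibitor of VCP at the ER, averaged 26.6 ± 2.25 (SD, n = 5) and 23.8 ± 1.53 FPKM (SD, n = 6) and fell by 0.16 on the log2 scale, though not without *Atf6*+/+ replicate 1, 2 or 3 or *Atf6*-/- replicate 4 or 6.

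Chaperones that feed clients to ERAD gave 3 of 10, in both directions (median 0.028). *Hyou1*, a nucleotide exchange factor of BiP, rose by 0.22 on the log2 scale, *Dnajb9* (ERdj4), a co-chaperone that guides clients to ERAD, by 0.24, and *Hsp90b1* (GRP94) fell by 0.20. *Hspa5* (BiP) itself was 132 ± 17.8 (SD, n = 5) and 128 ± 12.8 FPKM (SD, n = 6), with a log2 fold change of -0.048. That value turned positive in TPM (0.0091), with the bone marrow score (0.0022) or the plasma cell score (0.050), and without *Atf6*+/+ replicate 3 (0.027). Of 16 other ERAD ubiquitin ligases and their substrate adaptors, *Fbxo27* (0.25) and *Rnf103* (0.13) rose (median of the list -0.0025), *Fbxo27* without overlap of the genotypes. *Fbxo27* was 0.17 without *Atf6*+/+ replicate 3, and 0.15 without replicates 3 and 4, where it did not pass. Of 13 sensors and factors of the unfolded protein response, *Atf6* fell and *Atf6b* (0.12), *Creb3l2* (0.30) and *Atf4* (0.19) rose (median 0.069). *Atf6b*, the closest relative of *Atf6*, lay between 32.0 and 35.6 FPKM in *Atf6*+/+ and between 35.8 and 36.6 FPKM in *Atf6*-/-, without overlap. *Xbp1*, whose spliced product drives several of the members, was 62.0 ± 4.31 (SD, n = 5) and 65.3 ± 6.95 FPKM (SD, n = 6), with a log2 fold change of 0.069. With single libraries left out it lay between 0.024 (without *Atf6*-/- replicate 3) and 0.11 (without *Atf6*+/+ replicate 3). With the plasma cell score it was 0.15, and it passed in none of these fits. These FPKM are of the whole gene, so the spliced part of *Xbp1* RNA was not measured. The count of 10 was 20 in TPM, 19 of them higher, where 11.3% of all genes passed, 1389 higher and 439 lower. It was 5 with the bone marrow score (5.5% of all genes) and 6 with the plasma cell score (3.88% of all genes). Only *Atf6* and *Hyou1* passed in every fit. *Dnajb9* was 0.11 and 0.10 with the 2 scores, *Fbxo27* 0.15 and 0.097 and *Creb3l2* 0.27 and 0.094, without passing, and *Hsp90b1*, *Rnf103* and *Atf4* each lost their call when any of several single libraries was left out.

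Because 3 members differed at the unadjusted p, their promoters were read for the motifs through which ATF6 and XBP1s are known to act. RefSeq promoter windows of the mouse build GRCm38.p6, with 250 bases before and 50 bases after each gene start, matched 9 of the 10 members in 10 windows, 2 of them for *Derl2*. *Derl1* had no entry. The ER stress response element (ERSE) is CCAAT, 9 bases of any kind and CCACG, and ERSE-II is ATTGG, 1 base of any kind and CCACG. Both strands were searched, and the ATTGG of an ERSE-II is at the same time a CCAAT on the other strand. A complete ERSE was in 0.119% of 32851 promoter windows and an ERSE-II in 0.0365%. Among the members, *Syvn1* and *Derl3* had an ERSE and *Herpud1* an ERSE-II. These 3 genes passed at the unadjusted p in the fit of all libraries on genotype alone, 2 higher and 1 lower. The called members changed with the fit. Only *Syvn1* passed with the bone marrow score, with the plasma cell score or without *Atf6*+/+ replicates 3 and 4, and TPM added *Derl1*, *Edem2* and *Selenos*. The windows of *Edem2* and *Selenos* held neither motif. The match of motif to call was not tested. The core motifs TGACGTG (2.01% of all windows) and TGATGNAAT (0.965%), the latter bound by ATF4 with its partners, were in none of the member windows. The parts of the ERSE are common: CCACG alone was in 32.8% of all windows and in 9 of the 10 member windows, and CCAAT alone in 37.4% and in 8 of the 10. The window of *Edem2* lacked CCAAT, and 1 of the 2 windows of *Derl2* lacked both. A match is a stretch of letters and was not tested as a site.

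The 250 bases before the start are shown for the 3 members with a complete motif, since they place it relative to the gene. They are written 5′ to 3′ on the strand of the gene, with the fixed letters of the ERSE or ERSE-II in capitals. For *Herpud1* (chr8:94386179-94386428, plus strand) the match begins 52 bases before the start, for *Syvn1* (chr19:6046326-6046575, plus strand) 44 bases before it, and for *Derl3* (chr10:75893148-75893397, plus strand) 156 bases before it and on the opposite strand, so that it reads CGTGG, 9 bases and ATTGG.
Herpud1: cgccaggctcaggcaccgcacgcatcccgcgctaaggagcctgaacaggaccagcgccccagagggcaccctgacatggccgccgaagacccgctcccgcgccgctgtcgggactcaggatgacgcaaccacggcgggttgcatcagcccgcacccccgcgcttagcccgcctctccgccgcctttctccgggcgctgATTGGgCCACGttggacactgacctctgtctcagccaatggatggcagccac
Syvn1: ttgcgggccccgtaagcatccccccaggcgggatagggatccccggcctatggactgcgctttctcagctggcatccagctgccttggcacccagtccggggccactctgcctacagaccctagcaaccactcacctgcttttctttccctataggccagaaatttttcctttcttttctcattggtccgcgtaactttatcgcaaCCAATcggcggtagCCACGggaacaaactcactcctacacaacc
Derl3: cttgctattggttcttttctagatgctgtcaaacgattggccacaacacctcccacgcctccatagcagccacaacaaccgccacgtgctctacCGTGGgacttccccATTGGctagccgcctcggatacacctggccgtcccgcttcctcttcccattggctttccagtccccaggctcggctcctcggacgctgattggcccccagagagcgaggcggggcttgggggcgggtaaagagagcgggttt

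**Figure D4:**
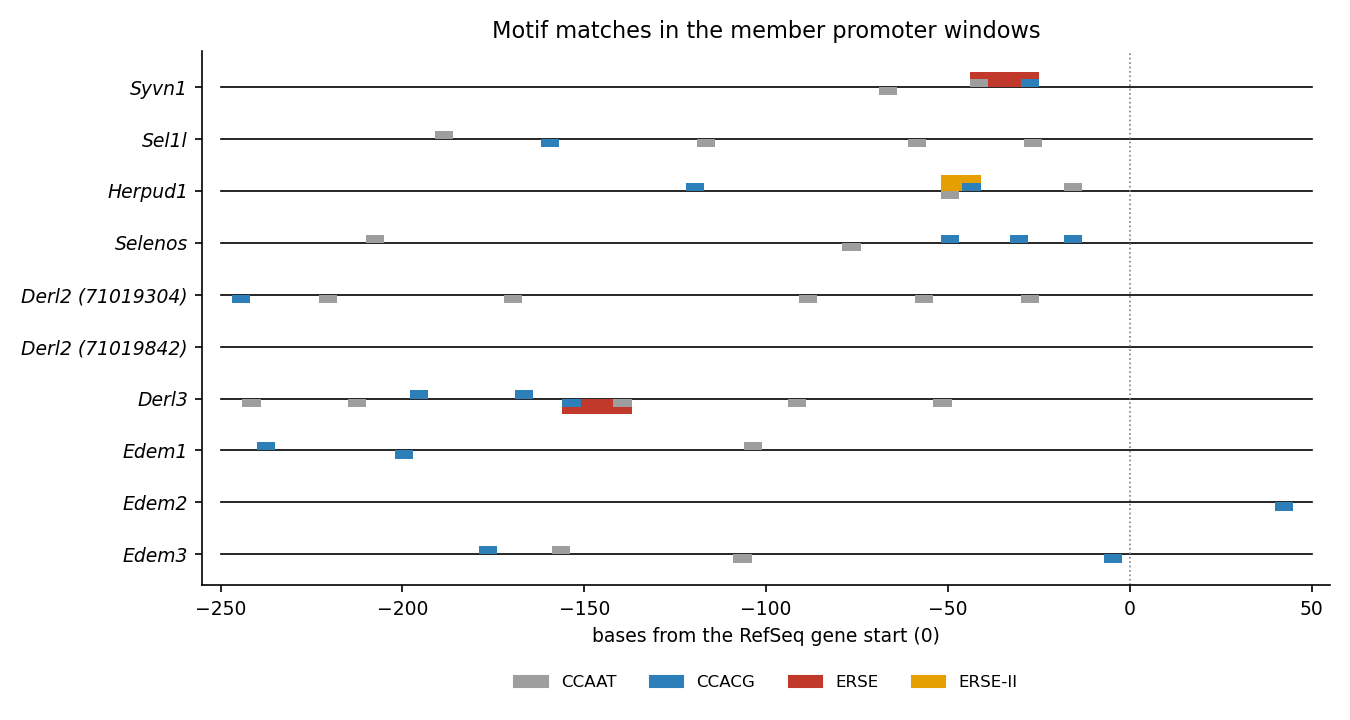
Motif matches in the RefSeq promoter windows (GRCm38.p6) of the 9 matched members, by distance in bases from the gene start, with blocks above the line on the strand of the gene and below it on the other strand. *Syvn1* and *Derl3* hold an ERSE (red) and *Herpud1* an ERSE-II (yellow), and the blue and grey blocks are single CCACG and CCAAT matches. The windows of *Derl2* are named by their first coordinate.

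All genes whose windows hold a complete ERSE or ERSE-II were then listed, after the member values had been seen. There were 49, of which 30 were tested, and their names include the ER chaperone genes *Hspa5*, *Hsp90b1*, *Calr*, *Canx*, *Pdia6*, *Dnajb11*, *Dnajc3* and *Creld2*. Of the 30, 7 passed at the unadjusted p (23.3%, against 9.85% of all genes), 3 higher and 4 lower, and the median log2 fold change was -0.0089. With the 3 members set aside, 4 of 27 passed, beside 9.85% of all genes: *Hsp90b1*, *Lgalsl*, *Lrif1* and *Xlr3a*, with a median of -0.017. *Lgalsl*, *Lrif1*, *Xlr3a* and the chaperone genes of this list other than *Hspa5* and *Hsp90b1* were named after their values were seen. For the first 3 of them the log2 fold changes were 0.17, -0.27 and -1.17 in that order. The count of 7 was 4 with the bone marrow score, where 5.5% of all genes passed, and 4 with the plasma cell score, where 3.88% did, and both counts include *Syvn1*. No gene of the list had an adjusted p under 0.05 with limma.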

How the data were processed

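The authors aligned reads with HISAT2 2.0.4 to GRCm39 and estimated FPKM with RSEM (version 1.2.12 in the sample labels, while their methods give another); these deposited FPKM values were the start here. Genes averaging 0.1 FPKM or more (16169 of 18667) were fitted as log2(FPKM + 0.1) on genotype with limma 3.58.1 (trend) in R 4.3.3, and p values were adjusted by Benjamini-Hochberg over all of them. Exact two-sided permutation tests of the mean difference ran over all 462 assignments. Summaries used Python 3.11.15 with pandas 2.3.3. Results were refitted in 22 other ways and in 1 added after the values were seen. Members and lists were chosen with earlier results of these data known. Genes named were the members, *Atf6*, *Hspa5*, *Xbp1*, up to 4 passing genes of a list, the 3 genes most alike to each member and the most abundant markers, unless stated. Limits: 5 and 6 libraries, FPKM without read counts, whole tissue, no protein, uneven sexes (4 of 5 *Atf6*+/+ and 3 of 6 *Atf6*-/- counted as male), and bone marrow and plasma cell scores that were lower on average in *Atf6*-/-, with overlap.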

Additional observations from a re-analysis of the deposited data

Results flagged for a closer look

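Of 64 groups of libraries tested with Dixon's test, 5 had a value far from the rest, and by chance alone it would mark about 1 in 20 groups. *Fbxo27* was 5.19 FPKM in *Atf6*-/- replicate 6, with the nearest library at 4.69, and *Atf4* was 149.07 FPKM in *Atf6*+/+ replicate 4, with the nearest at 120.07. The log2 ratio of *Herpud1* to *Syvn1* was 1.34166 in *Atf6*-/- replicate 6, with the nearest at 1.57. The neutrophil sum was 1355.62 FPKM in *Atf6*-/- replicate 4 and the erythroid sum 46394.4 FPKM in *Atf6*+/+ replicate 5, with the nearest at 396.61 and 16107.8 FPKM. All values were kept.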

How the results depend on the processing

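Each result was refitted in 22 other ways and in 1 chosen after seeing the data, which leaves out *Atf6*+/+ replicates 3 and 4. No member reached an adjusted p under 0.05 in any fit. The 3 members called at the unadjusted p became 6 in TPM, 5 with median-of-ratios scaling, and 1 each with the bone marrow score, with the plasma cell score and without *Atf6*+/+ replicates 3 and 4, and 2 to 4 with single libraries left out. The 10 called genes of the other lists became 20 in TPM (11.3% of all genes, mostly higher), 5 with the bone marrow score (5.5% of all genes) and 6 with the plasma cell score (3.88% of all genes), and 8 to 14 with single libraries left out. The 7 called genes with an ERSE or ERSE-II, a count itself added after the values were seen, became 4 with the bone marrow score, 4 with the plasma cell score and 5 to 7 with single libraries left out.

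The members' median log2 fold change of 0.077 was 0.134 in TPM, 0.0375 with the bone marrow score, 0.03799 with the plasma cell score, and 0.04593 to 0.0835 with single libraries left out. *Sel1l* turned positive in TPM (0.04391) and with sex as a covariate (0.01557), and was -0.06368 to 0.01951 with single libraries left out. *Edem1* turned positive in TPM (0.004529), with the bone marrow score (0.06384), with the plasma cell score (0.1144) and without *Atf6*+/+ replicates 3 and 4 (0.04388), and was -0.1043 to 0.03489 with single libraries left out. *Edem3* turned negative with the plasma cell score (-0.0195). *Atf6* was -1.183 to -1.095 with single libraries left out. The cause was not tested.

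A replicate block, which pairs equal replicate numbers, gave 2 called members (*Derl3* and *Herpud1*), 6 genes of the other lists and 4 ERSE genes. Libraries of equal number had low correlations of their deviations from the genotype means (r = 0.095, -0.12, -0.21, 0.12 and -0.040), and the equal number was the closest partner for 1 of the 5 *Atf6*+/+ libraries, so the numbers were not taken to pair the samples.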
